A study of Mus musculus with 20 samples.

Results

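Kupffer cells are the resident macrophages of the liver, and 10 genes that mark them were followed across genotype and diet in mouse liver RNA. The 10 rows were chosen by gene name from a table of 55385 genes, with earlier results of these data known. Of these, 8 are specific to resident Kupffer cells (Cd5l, Timd4, Clec4f, Vsig4, Marco, Folr2, Fcna and Cd163), and 2 are shared by macrophages in general (Adgre1 and Csf1r). All 10 were among the 18905 genes that passed the filter on low counts.

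The study crossed genotype with diet. Livers came from mice labelled LXRα-/- on a high-fat diet (HFD), mice labelled LXRα-/- on chow, wild-type (WT) mice on HFD and WT mice on chow, each sampled at week 24 with 5 libraries per group. The titles call the mutant LXRα-/-, while another label field calls it a knockdown; no Cre driver, clone or strain is named. Age is given only as that week, and whether each library is a separate animal is not stated, so p-values measure the spread between libraries, which may be technical. Bulk liver was sequenced, so fewer cells of a type and less RNA per cell cannot be told apart.

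Kupffer cells arise before birth, maintain themselves in the liver sinusoids and clear microbes, old red cells and lipoproteins from portal blood. Their identity is kept by signals from neighbouring endothelial, stellate and parenchymal cells and by transcription factors that include PU.1, ID3, MAF proteins, SPIC and LXRα. LXRα, the product of Nr1h3, senses oxysterols as a nuclear receptor, and Cd5l is a known target of LXR in macrophages. When resident cells are lost, monocytes that enter the liver can take up the Kupffer programme, and Timd4 is known as one of the slowest genes to appear in such cells.

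Each library held 75549139 to 108889938 counts. Mitochondrial genes took 14.1% to 20.4% of counts in labelled LXRα-/- HFD, 18.2% to 29.6% in labelled LXRα-/- chow, 9.77% to 19.3% in WT HFD and 3.89% to 5.67% in WT chow, so the WT chow libraries stood apart. The targeted gene Nr1h3 was not called lower with the label. Its change on the log2 scale was 1.44 (SE 0.44, edgeR adjusted p = 0.145) on HFD and 0.26 (SE 0.43, edgeR adjusted p = 0.662) on chow. Nr1h3 was at 188, 27.2, 165, 187 and 194 CPM (counts scaled to library size) in labelled LXRα-/- HFD libraries 1 to 5. WT HFD libraries ranged over 42.7 to 64.3 CPM. On chow it was at 134, 161, 161, 23.4 and 194 CPM in labelled LXRα-/- libraries 1 to 5, against 92.8 to 135 CPM in WT. The labelled groups were thus not uniform: HFD library 2 and chow library 4 were below the WT range. HFD libraries 1, 3, 4 and 5 and chow libraries 2, 3 and 5 exceeded it, and chow library 1 was inside it. The cause of this split was not tested. The genotype is therefore named by its label throughout. Whether reads from an altered allele would still be counted is not given in the sources used here. The tissue label is liver, although a protocol field speaks of an adipose type: the hepatocyte marker Alb reached at least 21600 CPM in every library. Of 6 adipocyte markers, the medians over the 20 libraries were 0.0219 CPM for Adipoq, 0 CPM for Lep, Plin1 and Retn, 14.3 CPM for Cfd and 6.84 CPM for Cidec. Their summed level was 13.2 to 363 CPM in labelled LXRα-/- HFD, 3.3 to 104 CPM in labelled LXRα-/- chow, 5.61 to 132 CPM in WT HFD and 2.58 to 20.5 CPM in WT chow, overlapping between genotypes on both diets. Cfd was higher in labelled LXRα-/- on chow, at 4.38 (SE 1.16; edgeR adjusted p = 0.00485), and in WT HFD over WT chow, at 4.2 (SE 1.16; edgeR adjusted p = 0.00961), and the part of such cells in the results was not tested.

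The promoters of the 2 members that fell furthest on HFD, Cd5l and Timd4, are shown with that of Vsig4, whose change was among the smallest of the 8. Each stretch is the 250 bases before the RefSeq start site (GRCm38.p6), written 5′ to 3′ on the gene's strand. Cd5l lies at chr3:87357631-87357880 on the plus strand, Timd4 at chr11:46810549-46810798 on the plus strand and Vsig4 at chrX:96293439-96293688 on the minus strand. Capitals mark every match, on either strand, to 3 short motifs: GAGGAA (a purine-rich core of PU.1 sites), TGCTGA (a half-site of large MAF factors) and AGGTCA (a half-site of nuclear receptors).
Cd5l: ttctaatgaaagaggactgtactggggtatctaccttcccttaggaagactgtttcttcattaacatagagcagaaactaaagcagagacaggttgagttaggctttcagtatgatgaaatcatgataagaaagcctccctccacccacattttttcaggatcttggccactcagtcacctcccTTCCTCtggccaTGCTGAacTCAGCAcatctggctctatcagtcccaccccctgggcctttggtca
Timd4: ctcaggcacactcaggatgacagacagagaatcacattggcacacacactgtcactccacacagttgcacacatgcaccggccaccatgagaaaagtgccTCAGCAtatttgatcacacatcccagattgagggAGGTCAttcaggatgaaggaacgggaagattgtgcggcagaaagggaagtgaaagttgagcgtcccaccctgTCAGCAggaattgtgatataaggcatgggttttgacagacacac
Vsig4: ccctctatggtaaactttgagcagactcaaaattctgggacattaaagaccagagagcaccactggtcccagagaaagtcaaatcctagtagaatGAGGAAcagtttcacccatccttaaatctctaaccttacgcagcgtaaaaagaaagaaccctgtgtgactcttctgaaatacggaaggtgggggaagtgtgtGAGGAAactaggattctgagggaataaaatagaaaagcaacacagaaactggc
The Cd5l window held 1 GAGGAA (read as TTCCTC) and 2 TGCTGA matches. The Timd4 window held 1 AGGTCA and 2 TGCTGA matches, both of these read as TCAGCA. Vsig4 held 2 GAGGAA matches and no other.

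RefSeq windows were found for 8 of the 10 members, with 2 for Folr2, which gives 9 windows; Adgre1 and Csf1r had none in the table. GAGGAA was in 4 of the 9 windows and in 23.3% of 32851 promoter windows of the same length. TGCTGA was in 6 of the 9 and in 16.1% of all windows, and AGGTCA was in 2 of the 9 (Timd4 and Clec4f) and in 14% of all. The full LXR element, AGGTCA and a second AGGTCA with 4 bases of any kind between them, was in none of the 9 and in 0.0152% of all windows, and GAGGAAGT, which contains GAGGAA, was in none of the 9 and in 2.44% of all. These matches describe letters in a window, not binding.

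On chow, 9 of the 10 genes fell in labelled LXRα-/- livers relative to WT, all but Csf1r. On HFD, 4 fell: Cd5l, Timd4, Folr2 and Fcna. Calls are at an adjusted p under 0.05 in edgeR's quasi-likelihood test, with Benjamini-Hochberg adjustment over all genes. The background differed greatly between the diets: 43.4% of all genes tested were called on chow and 21% were called lower, against 0.455% and 0.201% on HFD. The share of members called on chow thus stands beside a large background and that on HFD beside a small one. Because the members were chosen with earlier results of these data known, these shares are a description and not a test of the members as a set. The median log2 fold change of the 8 resident-specific genes was -2.75 on chow and -2.3 on HFD, where the medians of all genes were 0.08 and 0.03.

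**Figure D1:**
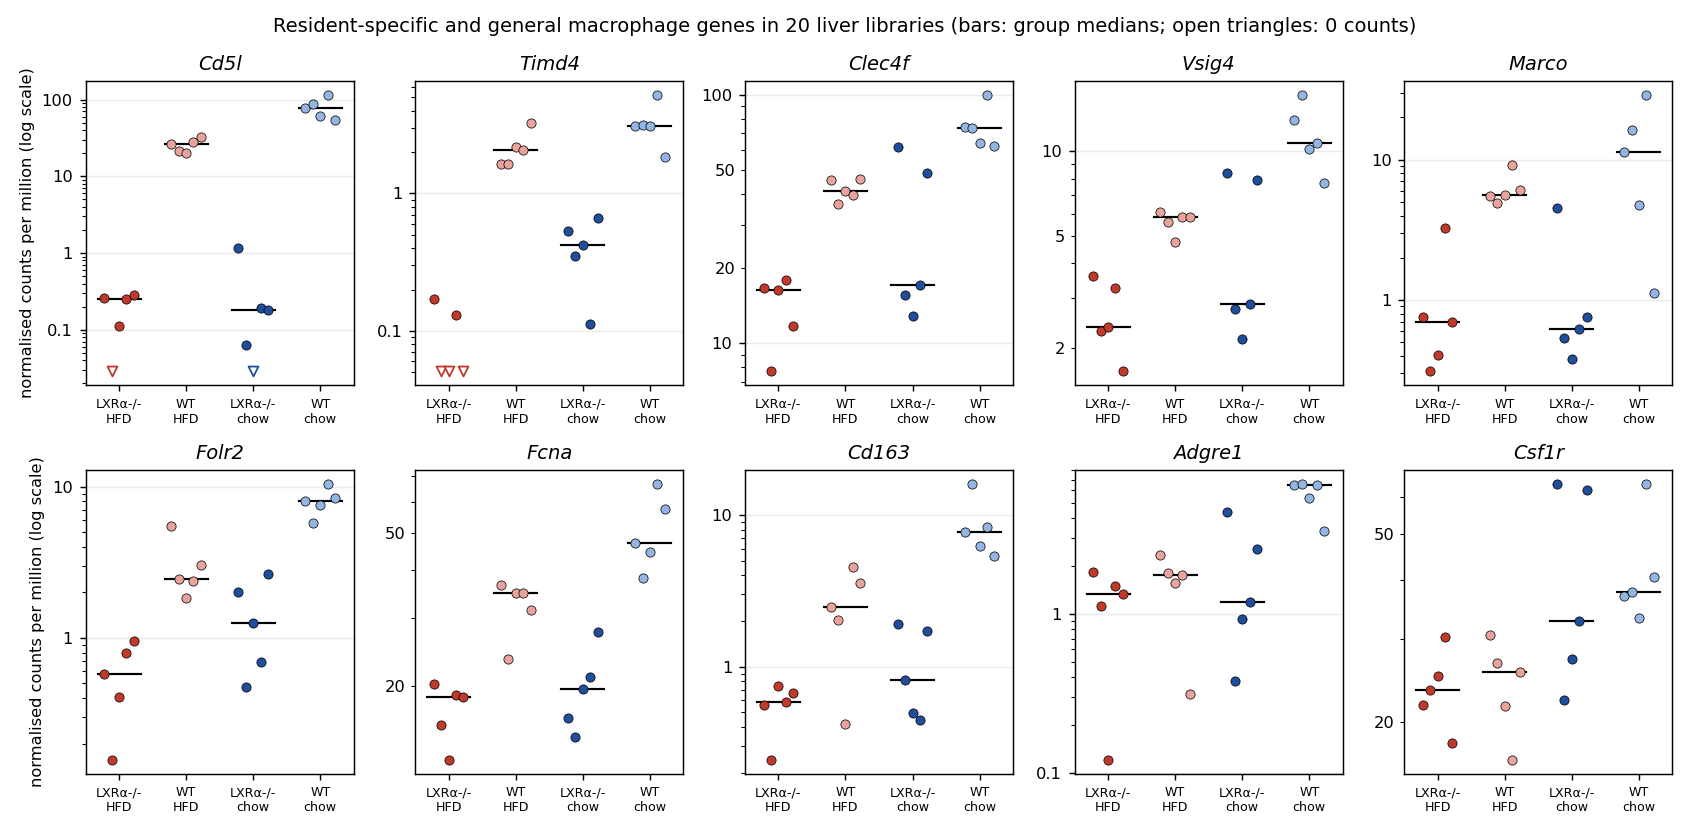
Normalised counts (CPM, log axis) of the 10 genes in each of 20 libraries, by group; black bars are group medians and open triangles are libraries with 0 counts. Cd5l lies at or under 1.15 CPM in all 10 labelled LXRα-/- libraries and at or over 20.4 CPM in all 10 WT libraries, while the groups of Csf1r overlap.

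Cd5l, the secreted protein AIM that inhibits macrophage apoptosis and binds lipids, was nearly absent from labelled LXRα-/- livers on both diets. In HFD livers the values were 0.26, 0, 0.111, 0.253 and 0.281 CPM with the LXRα-/- label and 26.5, 21.6, 20.4, 27.6 and 32.3 CPM in WT. In chow livers they were 1.15, 0.0635, 0, 0.194 and 0.18 CPM with the LXRα-/- label and 76.5, 86.9, 60.6, 115 and 53.9 CPM in WT. The genotypes did not come near to overlapping on either diet. The log2 fold change was -7.16 (SE 0.89) on HFD, with an edgeR adjusted p of 0.00055 and the rank 4 among all 18905 p-values. On chow it was -7.99 (SE 0.91; edgeR adjusted p = 1.68e-06), and -9.5 without the chow library 1 of labelled LXRα-/-, the one with 1.15 CPM. Cd5l was called on both diets in every alternative analysis run on it and without any single library.

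Fcna encodes ficolin A, the other secreted protein among the members, a lectin that starts the complement lectin pathway. On HFD, labelled LXRα-/- libraries held 20.3, 15.9, 12.9, 19 and 18.8 CPM and WT libraries 36.7, 23.5, 34.9, 35 and 31.5 CPM. On chow, labelled LXRα-/- libraries held 16.6, 14.8, 19.7, 21.2 and 27.7 CPM and WT libraries 47.1, 38.1, 44.7, 67.1 and 57.8 CPM. No labelled LXRα-/- library reached any WT library of its diet, yet the fall was among the smallest of the 8. It was -0.9 (SE 0.19) on HFD and -1.35 (SE 0.2) on chow, with edgeR adjusted p of 0.0494 and 2.05e-05. The HFD call ended without any single library of the 2 HFD groups other than library 2 of WT, with an adjusted p of up to 0.133.

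Timd4 encodes TIM-4, a receptor for phosphatidylserine on dying cells that marks the embryo-derived resident cells. In HFD livers the values were 0.17, 0, 0, 0.131 and 0 CPM with the LXRα-/- label and 1.64, 1.64, 2.18, 2.07 and 3.26 CPM in WT. In chow livers they were 0.532, 0.349, 0.423, 0.112 and 0.662 CPM with the LXRα-/- label and 3.12, 3.16, 3.08, 5.22 and 1.85 CPM in WT. Genotypes did not overlap on either diet, and the labelled LXRα-/- HFD libraries with reads held 15 and 14 counts. The log2 fold change was -5.14 (SE 0.81; edgeR adjusted p = 0.00463) on HFD and -2.98 (SE 0.71; edgeR adjusted p = 0.00205) on chow. Without HFD library 1 of labelled LXRα-/- the change was -5.93. The interaction of genotype with diet was -2.16 (SE 0.99) for Timd4, with an edgeR adjusted p of 0.136, so the difference between the diets did not pass the test.

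Clec4f, a C-type lectin receptor that is almost restricted to Kupffer cells in mice, and Vsig4, the complement receptor that takes up C3b-coated particles, had smaller differences. On HFD, labelled LXRα-/- libraries held for Clec4f 16.7, 7.71, 16.3, 18 and 11.7 CPM and WT libraries 45.4, 36.5, 41, 39.6 and 45.8 CPM. On chow, labelled LXRα-/- libraries held 61.6, 15.6, 12.9, 17.2 and 48.4 CPM and WT libraries 74.5, 73.4, 63.8, 100 and 62.1 CPM. Chow libraries 1 and 5 of labelled LXRα-/- lay close to the WT range and the other 3 far under it, but no library overlapped. The change was -1.56 (SE 0.36) on HFD, which missed the threshold in edgeR (adjusted p = 0.0558), and -1.27 (SE 0.35; edgeR adjusted p = 0.00694) on chow. Fitted on the 2 HFD groups alone, the edgeR adjusted p of Clec4f on HFD was 0.0139.

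Vsig4 had 3.59, 2.3, 2.38, 3.26 and 1.65 CPM in labelled LXRα-/- HFD against 6.11, 5.62, 4.77, 5.82 and 5.85 CPM in WT HFD. In chow livers they were 8.4, 2.75, 2.15, 2.87 and 7.93 CPM with the LXRα-/- label and 12.9, 15.9, 10.2, 10.7 and 7.73 CPM in WT. The same 2 labelled LXRα-/- chow libraries, 1 and 5, were high, and here they overlapped the lowest WT library. The change was -1.1 (SE 0.34; edgeR adjusted p = 0.149) on HFD and -1.25 (SE 0.34; edgeR adjusted p = 0.00544) on chow.

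The scavenger receptors Marco, which binds bacteria and particles, and Cd163, which takes up haemoglobin bound to haptoglobin, varied widely between libraries. In HFD livers Marco values were 0.758, 0.311, 0.408, 3.24 and 0.696 CPM with the LXRα-/- label and 5.48, 4.91, 5.56, 9.1 and 6.1 CPM in WT. On chow, labelled LXRα-/- libraries held 4.52, 0.532, 0.383, 0.622 and 0.763 CPM and WT libraries 11.3, 16.2, 4.79, 29 and 1.12 CPM. On HFD the genotypes were apart, whereas on chow labelled LXRα-/- library 1 exceeded WT library 5. The change was -2.52 (SE 0.8; edgeR adjusted p = 0.159) on HFD and -3.2 (SE 0.82; edgeR adjusted p = 0.00374) on chow. On chow it was -4.44 without labelled LXRα-/- library 1 and -2.61 without WT library 4, and on HFD it was -3.52 without labelled LXRα-/- library 4.

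Cd163 had 0.555, 0.243, 0.751, 0.581 and 0.672 CPM in labelled LXRα-/- HFD against 2.49, 2.04, 0.416, 4.52 and 3.56 CPM in WT HFD. In chow livers they were 1.9, 0.818, 0.494, 0.448 and 1.73 CPM with the LXRα-/- label and 7.76, 16.1, 6.22, 8.34 and 5.37 CPM in WT. WT HFD library 3 was as low as the labelled LXRα-/- libraries, and on chow the genotypes did not overlap. The change was -2.21 (SE 0.53; edgeR adjusted p = 0.0672) on HFD and -3.02 (SE 0.54; edgeR adjusted p = 0.000171) on chow. Without WT HFD library 3 the HFD change was -2.49 and passed in edgeR (adjusted p = 0.0195).

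Folr2, a folate receptor of resident and alternatively activated macrophages, fell on both diets. On HFD, labelled LXRα-/- libraries held 0.577, 0.156, 0.408, 0.796 and 0.953 CPM and WT libraries 5.48, 2.46, 1.84, 2.37 and 3.06 CPM. On chow, labelled LXRα-/- libraries held 2, 0.476, 1.25, 0.693 and 2.63 CPM and WT libraries 8.06, 5.78, 7.54, 10.5 and 8.37 CPM. The genotypes did not overlap on either diet. The change was -2.4 (SE 0.47; edgeR adjusted p = 0.0281) on HFD and -2.52 (SE 0.47; edgeR adjusted p = 0.000248) on chow. The HFD call ended without labelled LXRα-/- library 1, 2 or 3 or WT library 1, with an adjusted p of up to 0.0982. Folr2 overlaps Gm10602 on the other strand, which had 0.244 to 0.788 CPM in labelled LXRα-/- HFD, 0.304 to 1.75 CPM in labelled LXRα-/- chow, 0.853 to 1.73 CPM in WT HFD and 0.661 to 1.2 CPM in WT chow; the strand setting of the counts is not given in the sources used here, so reads of the pair cannot be told apart.

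Csf1r, the receptor for the growth factor CSF1 on which macrophages depend, was not called between genotypes on either diet. In HFD livers the values were 21.7, 23.4, 25, 30.3 and 18 CPM with the LXRα-/- label and 30.5, 26.6, 21.6, 16.6 and 25.5 CPM in WT. In chow livers they were 64.1, 22.2, 27.2, 32.7 and 62.2 CPM with the LXRα-/- label and 37, 37.8, 33.3, 64.1 and 40.6 CPM in WT. The ranges overlapped almost fully on HFD. On chow they overlapped through labelled LXRα-/- libraries 1 and 5, which also had the most Clec4f and Vsig4 of their group. Labelled LXRα-/- chow libraries 2, 3 and 4, at 22.2, 27.2 and 32.7 CPM, lay under the lowest WT chow library, at 33.3 CPM. The change was -0.03 on both diets, with a 95% interval of -0.56 to 0.51 on HFD and -0.56 to 0.5 on chow (edgeR adjusted p = 0.978 and 0.939). The sign of a change this close to 0 turned with the scaling of libraries, as library totals gave 0.19 on HFD. These intervals leave room for changes of that size in either direction.

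Adgre1, which encodes the surface antigen long used to stain mouse macrophages, had few reads. On HFD, labelled LXRα-/- libraries held 1.83, 1.13, 0.121, 1.51 and 1.33 CPM and WT libraries 2.36, 1.81, 1.56, 1.75 and 0.316 CPM. On chow, labelled LXRα-/- libraries held 4.37, 0.381, 0.927, 1.19 and 2.55 CPM and WT libraries 6.47, 6.61, 5.36, 6.5 and 3.35 CPM. One library of each HFD group was far under its group, and on chow labelled LXRα-/- library 1 overlapped WT library 5. The change was -0.4 (SE 0.6; edgeR adjusted p = 0.823) on HFD and -1.59 (SE 0.61; edgeR adjusted p = 0.0416) on chow. The chow call ended without any of 7 libraries, labelled LXRα-/- 2, 3 or 4 or WT 1 to 4, with an adjusted p of up to 0.0928. On chow the FPKM of Adgre1 was 0.0698 ± 0.0329 of that of Csf1r with the LXRα-/- label and 0.247 ± 0.078 of it for WT (SD, n = 5 each).

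**Figure D2:**
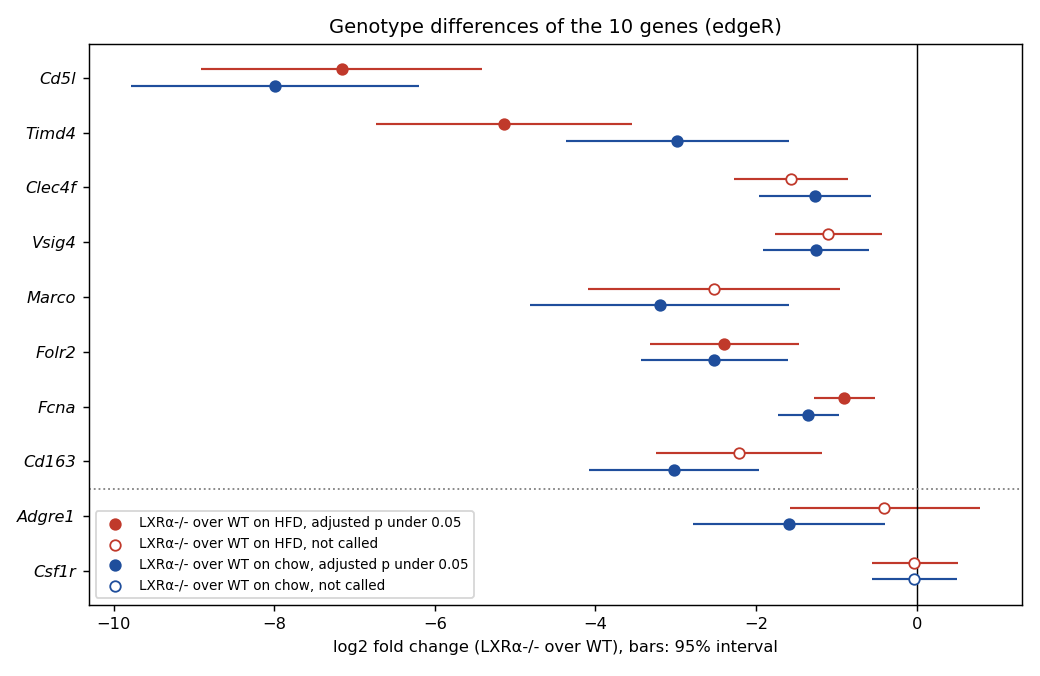
Log2 fold change of labelled LXRα-/- over WT for the 10 genes on HFD (red) and on chow (blue), with bars of the 95% interval; filled points are called in edgeR, and the dotted line divides the resident-specific genes above from the general genes below. Cd5l lies farthest from 0 on both diets and Csf1r lies at 0 on both.

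Groups that did not overlap were counted as a further description. On HFD, 7 of the 10 members were lower in every labelled LXRα-/- library than in any WT library, where 3.06% of all genes were. On chow it was 6 of 10, where 15% of all genes were.

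With the share of mitochondrial genes as a covariate, which bears on the chow comparison because that share was 18.2% to 29.6% in labelled LXRα-/- and 3.89% to 5.67% in WT, 2 of the 10 genes were called on chow, where 0.624% of all genes were called lower. They were Cd5l at -11.47 (edgeR adjusted p = 0.00527) and Cd163 at -5.53 (edgeR adjusted p = 0.0199). The other 7 lost their call while their changes kept their direction: Timd4 was at -2.8, Clec4f at -2.91, Vsig4 at -2.43, Marco at -5.93, Folr2 at -3.3, Fcna at -0.93 and Adgre1 at -2.75, with edgeR adjusted p between 0.0716 and 0.486. As the shares of the genotypes did not overlap on chow, share and genotype cannot be told apart there. The fit extends slopes from within the groups, so neither the lost calls nor the larger changes settle the matter. On HFD, where the shares of the genotypes overlapped, the covariate gave 5 calls in place of 4, with Clec4f and Cd163 added and Fcna lost, where 0.143% of all genes were called lower.

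Other analyses of these comparisons stood beside other backgrounds. On HFD, DESeq2 called 7 of the 10 lower, with Clec4f, Marco and Cd163 added to the 4 of edgeR, where it called 1.22% of all genes lower. With at least 10 CPM required in 5 libraries, 4 members remained in the fit, Cd5l, Clec4f, Fcna and Csf1r. Of these, edgeR called Cd5l and Fcna lower on HFD and Cd5l, Clec4f and Fcna on chow, where 0.244% and 27.7% of all genes were.

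The contrast of resident-specific with general genes was tested by scaling each library to the geometric mean of its Adgre1 and Csf1r counts in place of its size. On HFD, Cd5l and Timd4 were then called lower, at -7.07 and -5.49 (edgeR adjusted p = 2.91e-05 and 0.00427), where 0.0264% of all genes were called lower. On chow, Cd5l, Marco, Folr2 and Cd163 were called lower, at -7.49, -2.39, -1.66 and -2.03 (edgeR adjusted p = 2.03e-06, 0.0049, 0.017 and 0.0153), where 1.77% of all genes were. Relative to these general genes, Clec4f, Vsig4 and Fcna lay at -0.43, -0.35 and -0.13 on chow and were not called. These changes are relative to Adgre1 and Csf1r and were tested against 0. The scaling moved the median of all genes up to 0.44 on HFD and 1.39 on chow. That shift by itself leaves fewer genes to be called lower, so these shares of all genes are not comparable with those under library size. DESeq2 on the same scale called 4 on HFD, with Marco and Folr2 added, where it called 0.106% of all genes lower.

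The choice of the general gene mattered. Scaled to Csf1r alone, 4 of the 8 resident-specific genes were called lower on HFD and all 8 on chow, where 0.0741% and 9.21% of all genes were. The call of Clec4f on HFD was at -1.58 (edgeR adjusted p = 0.0166). Scaled to Adgre1 alone, 2 were called on HFD and 1, Cd5l, on chow, where 0.0476% and 0.619% of all genes were. This scale moved the median of all genes to 1.09 on HFD and 2.52 on chow, and on chow Clec4f, Vsig4 and Fcna turned to 0.58, 0.73 and 0.92. Scaled to the 20 other macrophage and myeloid genes, 5 were called on HFD and 8 on chow, where 0.0846% and 10.9% of all genes were. Cd5l was called under each of these 4 scalings on both diets, and Timd4 under each on HFD.

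**Figure D3:**
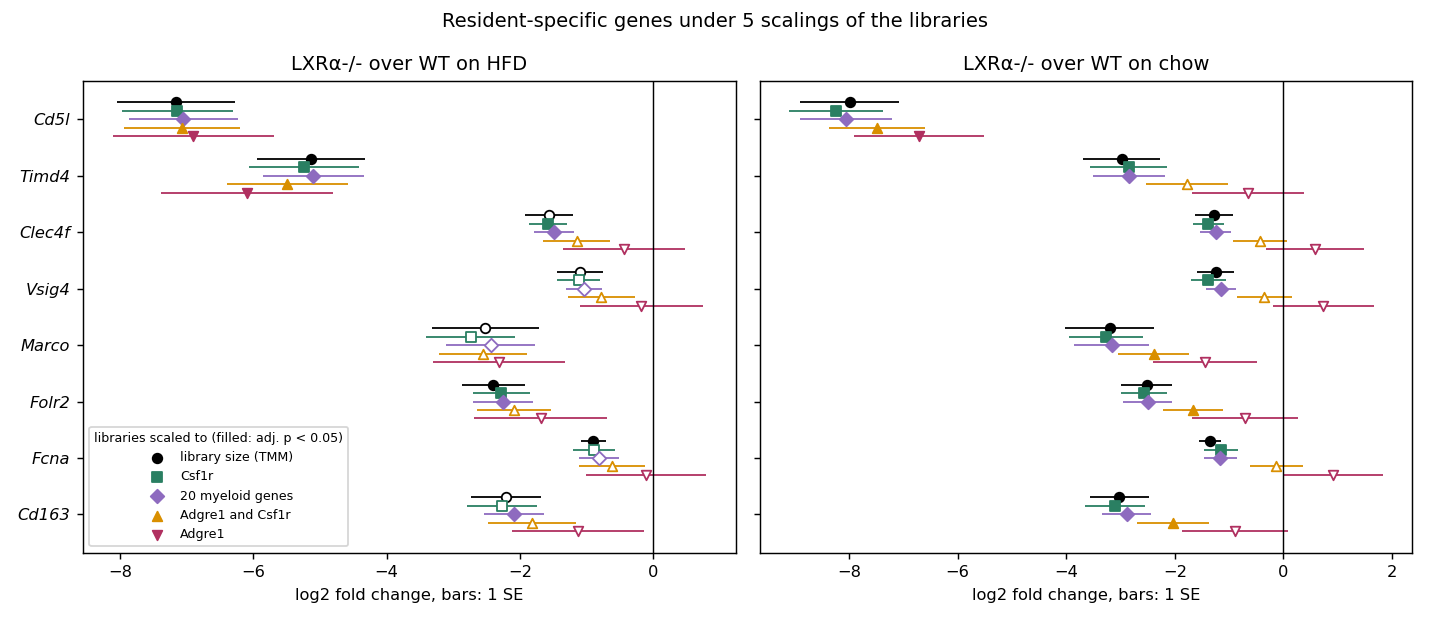
Log2 fold change of labelled LXRα-/- over WT for the 8 resident-specific genes on HFD (left) and on chow (right) with libraries scaled in 5 ways, named in the legend; bars are 1 SE and filled symbols are called in edgeR. Cd5l keeps its place under every scaling, while on chow Clec4f, Vsig4 and Fcna move from below 0 to above 0 when Adgre1 is the scale.

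Because FPKM scales counts to gene length, it allows levels to be set side by side between genes. In WT chow Cd5l had the highest mean of the 10, at 33.6 ± 8.82 FPKM, beside Fcna at 32.3 ± 5.34 and Clec4f at 26.5 ± 4.34 FPKM (SD, n = 5 each), and these neighbours did not differ beyond their spread. In labelled LXRα-/- chow Cd5l was last, at 0.134 ± 0.204 FPKM, where Fcna and Clec4f still led at 12.7 ± 2 and 10.9 ± 7.4 FPKM (SD, n = 5 each). On HFD Cd5l was in place 9 of 10 with the LXRα-/- label, at 0.0853 ± 0.057 FPKM, and in place 3 in WT, at 10.8 ± 2.01 FPKM (SD, n = 5 each). Timd4 was at the low end in all groups, with 0.0272 ± 0.0378 FPKM in labelled LXRα-/- HFD, 0.165 ± 0.0753 in labelled LXRα-/- chow, 0.853 ± 0.288 in WT HFD and 1.31 ± 0.416 in WT chow. Without Cd5l and Timd4, the order of the leading genes was Fcna, Clec4f, Csf1r and Vsig4 in 3 of the groups, and in WT chow Vsig4 stood before Csf1r by less than their spread.

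**Figure D4:**
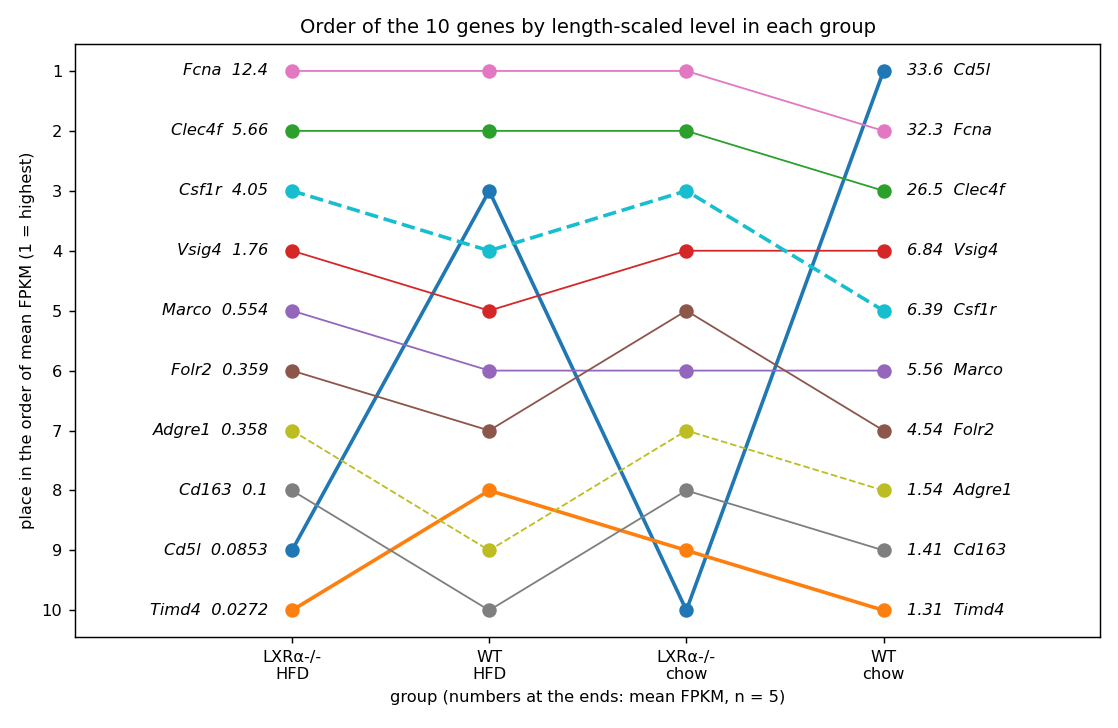
Place of each of the 10 genes in the order of mean FPKM (1 is the highest) in the 4 groups of 5 libraries, with mean FPKM printed for the groups at either end; dashed lines are the general genes. Cd5l is at the low end in both labelled LXRα-/- groups and is in the third and the first place in the WT groups, and Fcna and Clec4f stay within the first 3 places throughout.

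Ratios between members within a library do not depend on library size. The FPKM of Cd5l was 0.0143 ± 0.0109 of that of Clec4f in labelled LXRα-/- HFD against 0.747 ± 0.106 in WT HFD. On chow it was 0.00894 ± 0.00897 in labelled LXRα-/- against 1.25 ± 0.163 in WT (SD, n = 5 each). Cd5l was thus lower relative to Clec4f in all 10 labelled LXRα-/- libraries, in exact two-sided permutation tests with p = 0.00794 on each diet, the smallest that 5 against 5 libraries allow, and adjusted p = 0.0136 over the 12 ratio tests run. This ratio and those that follow were chosen after the values were seen, and the adjustment does not cover that choice.

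Timd4 over Clec4f was 0.00382 ± 0.00536 in labelled LXRα-/- HFD against 0.0584 ± 0.0146 in WT HFD, and 0.0187 ± 0.0122 in labelled LXRα-/- chow against 0.0488 ± 0.00963 in WT chow (exact permutation tests, adjusted p = 0.0136 and 0.0238). Vsig4 over Clec4f was 0.269 ± 0.0249 in labelled LXRα-/- chow against 0.259 ± 0.0709 in WT chow (exact permutation test, adjusted p = 0.762). On HFD that ratio was 0.326 ± 0.108 in labelled LXRα-/- against 0.226 ± 0.0246 in WT (exact permutation test, adjusted p = 0.0667). Fcna over Clec4f was higher in labelled LXRα-/- HFD, at 2.42 ± 0.891, against 1.39 ± 0.186 in WT HFD (exact permutation test, adjusted p = 0.0423), and on chow it was 1.64 ± 0.904 in labelled LXRα-/- against 1.24 ± 0.27 in WT (adjusted p = 0.424 in the same exact test).

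Clec4f fell relative to Csf1r on both diets. The ratio of Clec4f to Csf1r was 1.8, 0.771, 1.52, 1.39 and 1.52 in the labelled LXRα-/- HFD libraries against 3.48, 3.21, 4.45, 5.57 and 4.19 in WT HFD. On chow it was 2.25, 1.64, 1.11, 1.23 and 1.82 in labelled LXRα-/- against 4.71, 4.54, 4.48, 3.65 and 3.57 in WT. No library overlapped on either diet, chow libraries 1 and 5 of labelled LXRα-/- included (exact permutation tests, adjusted p = 0.0136 on both diets). The fall depended on the genes used as the scale. Scaled to Adgre1 alone, Clec4f was at -0.44 (SE 0.91) on HFD and 0.58 (SE 0.91) on chow and was not called. With Adgre1 and Csf1r together as the scale, it was at -1.15 and -0.43 and was not called. With the 20 other macrophage and myeloid genes as the scale, it was called lower, at -1.49 on HFD and -1.25 on chow (edgeR adjusted p = 0.0261 and 0.00255). Folr2 over Csf1r was 0.0944 ± 0.0644 in labelled LXRα-/- HFD against 0.462 ± 0.144 in WT HFD, and 0.12 ± 0.043 in labelled LXRα-/- chow against 0.721 ± 0.124 in WT chow, with the same adjusted p of 0.0136 in exact permutation tests.

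**Figure D5:**
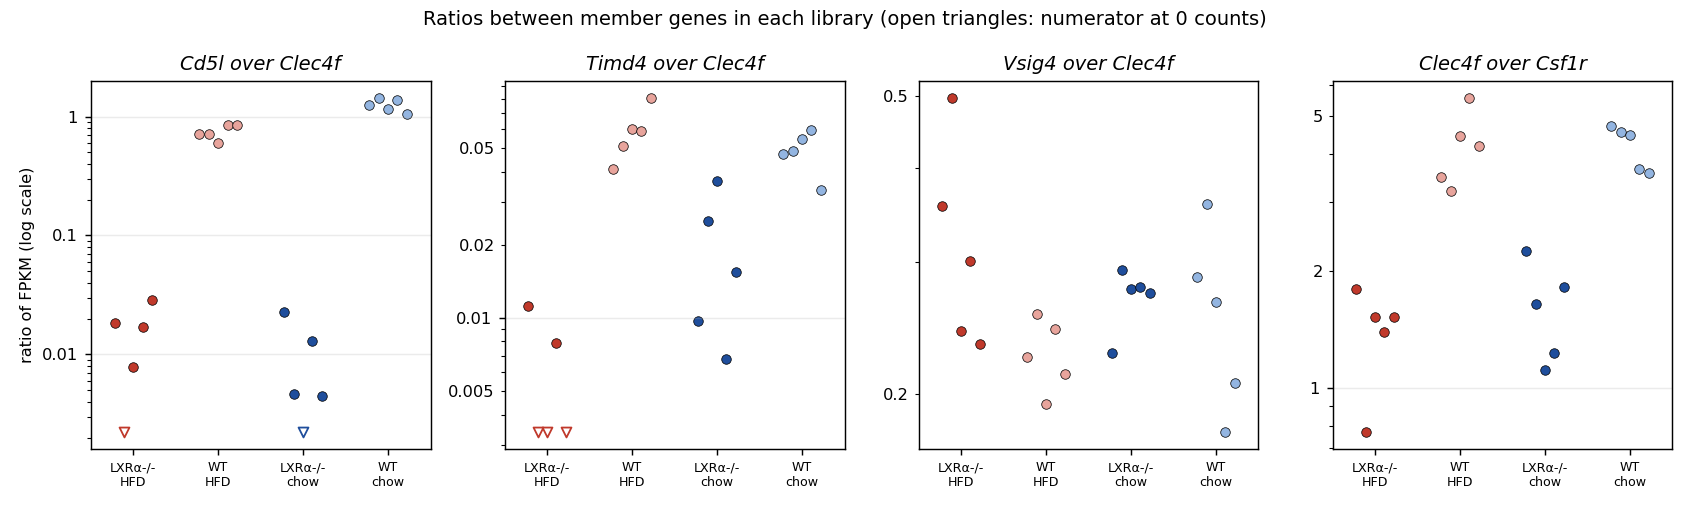
Ratio of FPKM between pairs of members in each of the 20 libraries (log axes), by group; open triangles are libraries in which the numerator has 0 counts. Cd5l over Clec4f is at or under 0.0286 in labelled LXRα-/- libraries and at or over 0.603 in WT libraries, while Vsig4 over Clec4f overlaps between the genotypes on both diets.

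Several of these genes differed by diet in WT livers. Of the 10, 6 fell in WT HFD relative to WT chow, Vsig4, Folr2, Fcna, Cd163, Adgre1 and Csf1r, where 29.3% of all genes were called and 15% were called lower. The changes were -1.02 (SE 0.34) for Vsig4, -1.4 (SE 0.45) for Folr2, -0.66 (SE 0.19) for Fcna, -1.75 (SE 0.51) for Cd163, -1.86 (SE 0.62) for Adgre1 and -0.82 (SE 0.27) for Csf1r, with edgeR adjusted p between 0.0143 and 0.0298. With the mitochondrial share as a covariate, 4 of the 10 were called lower, where 4.29% of all genes were. These were Vsig4 at -1.65, Cd163 at -3.2, Cd5l at -3.26 and Clec4f at -1.68, with edgeR adjusted p of 0.0435, 0.0105, 0.0337 and 0.033, so that Cd5l and Clec4f were gained. Folr2 at -1.8, Fcna at -0.41, Adgre1 at -2.41 and Csf1r at -1.18 lost their call (edgeR adjusted p = 0.0993, 0.444, 0.104 and 0.0799). The share was 9.77% to 19.3% in WT HFD and 3.89% to 5.67% in WT chow, so share and diet cannot be told apart here either. On log2(FPKM + 1) and log2(FPKM + 0.1), limma called 9 and 7 of the 10 lower, where it called 17.3% and 16.6% of all genes lower. With at least 10 CPM required in 5 libraries, 2 of the 4 members left, Fcna and Csf1r, were called lower, where 22.2% of all genes were. In edgeR without the covariate, Fcna and Cd163 kept their call without any single library, and each of the other 4 calls ended without any of 4 libraries. Cd5l at -1.61 (SE 0.68), Clec4f at -0.84 (SE 0.35), Marco at -1 (SE 0.76) and Timd4 at -0.61 (SE 0.65) did not pass in edgeR (adjusted p = 0.0823, 0.078, 0.352 and 0.529).

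Both general genes were among those that fell. In 8 of the 10 genes every WT HFD library was lower than any WT chow library, where 12.2% of all genes were. Scaled to Adgre1 and Csf1r, none of the 8 resident-specific genes was called in this comparison by edgeR, nor did any reach an unadjusted p under 0.05, where 0.73% of all genes were called lower and 57.6% had such an unadjusted p. Their median of 0.64 stood beside a median of all genes of 1.54.

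In labelled LXRα-/- livers no member was called between HFD and chow by edgeR, where 0.0159% of all genes were called. At an unadjusted p under 0.05, 5 of the 10 were lower on HFD, where 3.26% of all genes were: Timd4 at -2.76 (SE 0.76), Folr2 at -1.28 (SE 0.46), Clec4f at -1.14 (SE 0.35), Vsig4 at -0.87 (SE 0.34) and Csf1r at -0.82 (SE 0.27), while DESeq2 called 1 of the 10, Timd4 (adjusted p = 0.017), and 0.117% of all genes lower. Csf1r was -0.82 in both genotypes. The groups overlapped for each of the 10 genes, where 0.413% of all genes were lower without overlap; the labelled LXRα-/- chow group held both low libraries (2, 3 and 4) and high ones (1 and 5). The interaction of genotype with diet was called by edgeR for none of the members, where 19.4% of all genes were called, and 1 of 10 (Timd4) had an unadjusted p under 0.05, where 32.5% of all genes did. On log2(FPKM + 1), limma called a positive interaction for 3 of the 10, Cd5l, Cd163 and Adgre1, where 15% of all genes were called so, and on log2(FPKM + 0.1) for Cd5l alone, where 14.6% were.

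Genes whose pattern over the 20 libraries was most like that of a member were found by the root mean square difference of centred log2 CPM among 12670 named genes. The points share libraries and scaling, and the result is a description. Nearest to Cd5l were Kcna2, a potassium channel, Timd4 and Fabp5, a fatty acid binding protein, at differences of 2.5, 2.57 and 2.6, where the spread of Cd5l itself was 4.3. Kcna2 had 0 to 0.147 CPM in labelled LXRα-/- HFD, 0 to 0.433 CPM in labelled LXRα-/- chow, 1.78 to 5.18 CPM in WT HFD and 1.06 to 1.87 CPM in WT chow. Fabp5 had 1.27 to 5.74 CPM in labelled LXRα-/- HFD, 1.72 to 7.01 CPM in labelled LXRα-/- chow, 5.02 to 35.2 CPM in WT HFD and 125 to 344 CPM in WT chow. Both were lower in every labelled LXRα-/- library than in the WT libraries of the same diet except for Fabp5 on HFD, where the ranges overlapped, and Fabp5 was also far lower on HFD within WT.

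Nearest to Timd4 were Spryd3, Folr2 and Adam11, at 1.38, 1.38 and 1.52, against its own spread of 2.53. Clec4f had closer neighbours, Vsig4 at 0.33, Dact2 at 0.43 and Oas1a at 0.44, against its own spread of 1.05. Nearest to Csf1r were Cd68, a lysosomal protein of macrophages, and the complement genes C1qb and C1qa, at 0.25, 0.3 and 0.32, against its own spread of 0.55. Cd68, like Csf1r, overlapped between genotypes on HFD, with 5.31 to 9.2 CPM in labelled LXRα-/- against 6.41 to 9.73 CPM in WT. On chow it had 7.97 to 17.8 CPM in labelled LXRα-/- against 10.5 to 18.4 CPM in WT.

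A further list held 24 genes linked to Kupffer cells. On HFD none was called by edgeR and the median was -0.42; the nearest to the threshold among the 3 with the smallest p over the groups was Cdh5, at -0.8 (SE 0.18; edgeR adjusted p = 0.0529). On chow 8 were lower and 2 higher, with a median of -0.5, where 21% and 22.3% of all genes were. Hmox1, which breaks down haem, was at -2.37 (SE 0.36; edgeR adjusted p = 3.1e-05), Cdh5, an endothelial cadherin that Kupffer cells share, was at -1.44 (SE 0.18; edgeR adjusted p = 4.87e-06), and C1qc was at -1.39 (SE 0.25; edgeR adjusted p = 0.000187). The 2 higher genes were Spic, the transcription factor of iron-handling macrophages, at 1.16 (edgeR adjusted p = 0.0392), and Id1, at 1.74 (edgeR adjusted p = 0.0028); both were named after their values were seen.

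Of 20 other macrophage and myeloid genes none was called on HFD by edgeR, with a median of 0.17, and on chow 4 were higher and 5 lower, with a median of 0.06; both counts are near the 22.3% and 21% of all genes called higher and lower on chow. Lgmn, a lysosomal protease, was at -2.28 (SE 0.26) on chow, while Fcer1g, an Fc receptor chain, was at 1.38 (SE 0.22) and Coro1a, an actin regulator of leukocytes, at 1.92 (SE 0.3), with edgeR adjusted p of 1.68e-06, 4.31e-05 and 4.51e-05. Their summed level was 497 to 588 CPM in labelled LXRα-/- HFD, 572 to 828 CPM in labelled LXRα-/- chow, 571 to 760 CPM in WT HFD and 856 to 1210 CPM in WT chow. That of the 8 resident-specific genes was 26.6 to 45.2 CPM in labelled LXRα-/- HFD, 35.4 to 96.7 CPM in labelled LXRα-/- chow, 98.3 to 131 CPM in WT HFD and 198 to 346 CPM in WT chow. The resident sums of the genotypes did not overlap on either diet, and those of the myeloid genes overlapped on HFD only. The myeloid sum rests largely on Ctsb, whose median over all libraries was 475 CPM. Every other gene of that list had a median of at most 27.3 CPM.

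Among 17 tested genes of recruited or lipid-associated macrophages, 3 were called higher and 1 lower on HFD, with a median of 0.52, where 0.254% and 0.201% of all genes were. On chow 6 were higher and 2 lower, with a median of 0.13, beside 22.3% and 21% of all genes. Itgax, which encodes CD11c, rose by 1.83 (SE 0.37; edgeR adjusted p = 0.0318) on HFD and 3.03 (SE 0.39; edgeR adjusted p = 5.66e-06) on chow. Fcgr4, an activating Fc receptor, rose by 2.22 (SE 0.32; edgeR adjusted p = 0.00228) on HFD and 1.39 (SE 0.31; edgeR adjusted p = 0.0012) on chow. Fabp5 fell, at -2.53 (SE 0.56) on HFD, with an edgeR adjusted p that rounds to 0.05, and -5.98 (SE 0.65; edgeR adjusted p = 1.05e-06) on chow. Cd207, which encodes langerin, was higher on HFD at 2.53 (SE 0.39; edgeR adjusted p = 0.00376) and was at 0.17 (SE 0.36; edgeR adjusted p = 0.734) on chow.

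Of 21 tested genes of the niche that signals to Kupffer cells, 4 were higher and 6 lower on chow, near the shares of all genes (22.3% and 21%), and none was called on HFD by edgeR. Tgfbr2, a TGF-β receptor, was at -2.2 (SE 0.27) on chow and -0.1 (SE 0.26) on HFD, Rxra, the partner of LXR, at -1.42 (SE 0.16) and -0.15 (SE 0.15), and Gdf2, which encodes BMP9, at -1.14 (SE 0.14) and -0.34 (SE 0.14), with edgeR adjusted p of at most 4.1e-06 on chow and at least 0.275 on HFD. The 4 higher on chow were Tgfbr1 at 1.67 (SE 0.31), Csf3r at 1.58 (SE 0.36), Bmp2 at 1.15 (SE 0.23) and Dll1 at 1 (SE 0.35). Their edgeR adjusted p were 0.000283, 0.00144, 0.000445 and 0.0278. Of 9 genes for ligands of the members' receptors, 6 were lower and 1 higher on chow, beside 21% and 22.3% of all genes, and none was called on HFD by edgeR; C3, whose fragments bind Vsig4, was at -1.62 (SE 0.29; edgeR adjusted p = 0.000146) on chow and -0.2 (SE 0.28; edgeR adjusted p = 0.807) on HFD. The bridging proteins Pros1 and Mfge8, which tie dying cells to phagocytes, were at -0.86 (SE 0.22) and -0.59 (SE 0.21) on chow (edgeR adjusted p = 0.00347 and 0.0279) and 0.47 (SE 0.22) and -0.89 (SE 0.21) on HFD (edgeR adjusted p = 0.328 and 0.0663). A list of 15 genes known as LXR targets in macrophages included Nr1h3 itself, and hepatocytes also express many of them. On HFD 1 was lower, Pltp at -2.56 (SE 0.55, edgeR adjusted p = 0.0438). On chow 5 were lower and 3 higher, beside the same 21% and 22.3%. Smpdl3a was at -1.37 (SE 0.22) and Fads1 at -1.6 (SE 0.27) on chow, with edgeR adjusted p of 5.54e-05 and 0.000109. The 3 higher were Abca1 at 0.64 (SE 0.26), Lpl at 0.91 (SE 0.26) and Arl4c at 0.82 (SE 0.27). Their edgeR adjusted p were 0.0492, 0.00838 and 0.0199.

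Markers of other liver cells give the setting of these values. Of 7 markers of sinusoidal endothelium, 4 were lower on chow, where 21% of all genes were, and none was called on HFD by edgeR. Their summed level was 60.2 to 102 CPM in labelled LXRα-/- HFD, 65.4 to 110 CPM in labelled LXRα-/- chow, 81.7 to 99 CPM in WT HFD and 90.3 to 134 CPM in WT chow. The summed level of 6 monocyte markers was 4.37 to 6.93 CPM in labelled LXRα-/- HFD, 5.45 to 12.4 CPM in labelled LXRα-/- chow, 4.42 to 8.8 CPM in WT HFD and 5.01 to 15.6 CPM in WT chow, and no marker of this list was at 0 in a whole group. Of these, Ccr2 and Cx3cr1 were higher on chow, at 2.7 (SE 0.63) and 2.12 (SE 0.39), and Plac8 lower, at -1.31 (SE 0.31), with edgeR adjusted p of 0.00183, 0.000207 and 0.00185. The sums of both lists overlapped between genotypes on each diet. Of 6 B and plasma cell markers 4 were higher on chow, where 22.3% of all genes were, and none was called on HFD by edgeR; their summed level was 11.3 to 15.7 CPM in labelled LXRα-/- HFD, 9.24 to 21.3 CPM in labelled LXRα-/- chow, 9.35 to 47.5 CPM in WT HFD and 2.46 to 5.27 CPM in WT chow. Of 7 hepatocyte markers 4 were lower on chow, where 21% of all genes were, and none was called on HFD by edgeR. Their sums did not overlap on HFD, at 72400 to 95600 CPM in labelled LXRα-/- against 117000 to 166000 CPM in WT. On chow they overlapped, at 52400 to 122000 CPM against 67900 to 125000 CPM. Of 6 T cell and 7 dendritic cell markers, 3 each were higher on chow, beside 22.3% of all genes. On HFD Cd207 alone among these was called, as higher, and it was also counted among the recruited and lipid-associated genes above. Ccr2, Cx3cr1 and Cdh5, among others, likewise belong to lists given further above, so the counts of different lists are not independent. The part of these cell types in the members' values was not tested.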

How the data were processed

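Poly(A)-selected RNA labelled as liver was sequenced in pairs in 20 mouse libraries, 5 in each of 4 groups taken from the titles. The authors deposited whole-number counts per gene and FPKM per gene side by side, per the file headers. Programs listed in the submitters' processing notes are HISAT2 2.0, StringTie 1.3.0 and Bowtie 0.12.2, without their roles. Those notes list mm8 as the genome build, yet gene positions in the table match GENCODE M21 on GRCm38 (99.6% with the same start among 55144 shared IDs). How reads were assigned to genes, with which program, strand setting and rule for shared reads, is not given in the sources used here. FPKM values of libraries with 0 counts were listed at 0.0001 and taken as 0.

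From the deposited counts, edgeR 4.0.16 in R 4.3.3 (filterByExpr with a minimum of 10 counts, TMM, quasi-likelihood F test, 1 mean per group over 20 libraries) tested 18905 genes, two-sided, with Benjamini-Hochberg adjustment and a threshold of 0.05. The SE was derived from the F statistic, and CPM used the TMM library sizes. The scaled fit replaced library size by the geometric mean of Adgre1 and Csf1r counts. Ratios of FPKM were compared by exact permutation tests of group means, adjusted over 12 tests, and were added after the values were seen. The scripts were tested on simulated data. There the scaled fit used abundant genes as its scale, so that test does not cover a scale with as few reads as Adgre1.

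The members and lists were chosen with earlier results of these data known. Beside the members and Nr1h3, the text names from each list the 3 genes of smallest p when all 4 groups are compared, and the 3 nearest to Cd5l, Timd4, Clec4f and Csf1r among genes with a mean of at least 1 CPM and a name, on log2 CPM with a prior count of 2. Outside this rule are Spic, Id1, Ctsb (named for its level), the marker genes of tissue identity, and the niche genes and LXR targets named as higher on chow. Alternatives were other filters and scalings, DESeq2 1.42.0, limma 3.58.1 on log2(FPKM + 1) and log2(FPKM + 0.1), the groups compared alone, the mitochondrial share as a covariate, the replicate number as a block, other general genes as the scale, and leaving out each library. No 2 libraries held identical values.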

Additional observations from a re-analysis of the deposited data

Results flagged for a closer look

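In 6 of the 40 sets of 5 libraries (10 genes in 4 groups), 1 library stood far from the other 4, by a gap over 0.71 of the range. About 1 of 20 sets of normally distributed values would pass this cut. CPM was used without a log scale and the sets share libraries, so that rate is not a measure of chance here. Cd5l was 1.15 CPM in labelled LXRα-/- chow library 1, where the next highest was 0.194 CPM. Marco was 3.24 CPM in labelled LXRα-/- HFD library 4 (next 0.758 CPM), 4.52 CPM in labelled LXRα-/- chow library 1 (next 0.763 CPM) and 9.1 CPM in WT HFD library 4 (next 6.1 CPM). Cd163 was 16.1 CPM in WT chow library 2, where the next was 8.34 CPM, and Csf1r was 64.1 CPM in WT chow library 4, where the next was 40.6 CPM. All 6 were the highest of their set, and no member differed between the diets in its genotype effect by the edgeR interaction test.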

How the results depend on the processing

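Cd5l and Timd4 were called lower on HFD in every alternative run on them and without any single library. With at least 10 CPM required in 5 libraries, which leaves only the abundant members, 3 were called by genotype on chow, 2 by genotype on HFD and 2 by diet in WT. DESeq2 called 7 by genotype on HFD and 1 by diet in labelled LXRα-/-, and limma called 3 interactions and 9 by diet in WT on log2(FPKM + 1), and 1 and 7 on log2(FPKM + 0.1). The mitochondrial covariate left 2 on chow and gave 4 by diet in WT. Relative to the general genes, Adgre1 alone gave 1 on chow, Csf1r alone 8 on chow and 4 on HFD, the myeloid list 8 on chow and 5 on HFD, and DESeq2 gave 4 on HFD. Leaving out 1 library at a time gave 8 to 9 calls by genotype on chow, 2 to 4 by genotype on HFD, 2 to 6 by diet in WT, 0 by diet in labelled LXRα-/- and in the interaction, and 3 to 5 on chow and 2 on HFD relative to the general genes. Signs turned only for values that were not called. For Csf1r these were its interaction (-0.01 with no filter, -0.14 with at least 10 CPM, -0.04 with median-of-ratios factors and with DESeq2), its change on chow (0.18 with at least 10 CPM) and on HFD (0.04 with at least 10 CPM, 0.19 with library totals, 0.15 and 0.18 on log2 FPKM with pseudocounts of 1 and 0.1). The interaction of Timd4 was 0.14 on log2(FPKM + 1), and that of Clec4f was 0.15 and 0.12 with those pseudocounts and 1.16 with the mitochondrial covariate, which also gave 0.64 for Cd5l and 0.9 for Marco by diet in labelled LXRα-/-. Scaled to Adgre1 alone, Clec4f, Vsig4 and Fcna were 0.58, 0.73 and 0.92 on chow. Without single libraries, Csf1r ranged over -0.24 to 0.17 on chow, -0.14 to 0.07 on HFD and -0.2 to 0.21 in the interaction; Cd5l and Marco by diet in labelled LXRα-/- over -1.12 to 0.73 and -1.32 to 0.92; the interactions of Marco, Clec4f, Vsig4 and Folr2 over -0.32 to 1.92, -0.5 to 0.11, -0.04 to 0.45 and -0.13 to 0.47; and Fcna relative to the general genes on chow over -0.38 to 0.1. The cause of these shifts was not tested. Same-numbered libraries did not deviate together (correlations of -0.135 to 0.09 in 30 pairs, 12 of 60 best with their own number). This gave no sign that the numbers pair the libraries, but a weak shared effect could be missed. With the replicate block, 9 members were called on chow and 4 on HFD. Library totals moved the median of all genes on HFD to 0.23. Adgre1 and Timd4, at a few CPM, limit the contrasts that rest on them.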
